A study of Mus musculus with 6 samples.

Results

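The semaphorins, plexins and neuropilins were followed in RNA sequencing of the mesonephros, the embryonic kidney with its Wolffian duct, taken from male mouse embryos at E12.5. The members are all genes whose symbol is that of a semaphorin of classes 3 to 7, of a plexin or of a neuropilin, which gave 31 of the 20033 genes in the deposited table: 20 semaphorins, 9 plexins and 2 neuropilins. The 6 libraries, each from its own mouse per the labels, were 3 of a global Wnt9b knockout (Wnt9b-/-) and 3 controls. The controls are Wnt9b+/+ in the design text and heterozygous in the genotype field, so they are called controls here. The series addresses what Wnt9b, a secreted ligand of the Wolffian duct epithelium, does in the development of that duct and in androgen action. Wnt9b itself was at 23.4, 19.2 and 19.0 TPM (the gene's length-corrected share of all transcripts) in the knockouts, against 24.9, 26.4 and 34.0 TPM in the controls. The labels do not say which part of Wnt9b was deleted, and a value over the whole gene is no sure test of a deletion.

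Semaphorins are secreted or membrane-bound guidance proteins that steer axons, vessels and epithelial cells, in most cases by repelling them. Plexins are their transmembrane receptors and carry a GTPase-activating domain inside the cell. Most secreted class 3 semaphorins need a neuropilin as the binding partner beside a plexin of the A group, Sema3E binds plexin D1 directly, and the membrane-bound classes bind plexins without neuropilin. Neuropilins also bind vascular endothelial growth factors. In the permanent kidney, semaphorin signals are known to act on branching of the ureteric bud, which grows out of the Wolffian duct.

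In the knockout mesonephroi, Sema5a, a membrane-bound semaphorin with thrombospondin repeats, fell to 0.527 times its level in controls. It was the only member past the test over all 17577 genes with enough signal (limma on log2(TPM + 1), Benjamini-Hochberg adjusted p under 0.05): 1 of 30 tested members, which was lower, where 0.444% of all tested genes passed, 0.313% lower and 0.131% higher. At an unadjusted p under 0.05 there were 7 of 30 members, where 11.3% of all tested genes had one. Of 30 members, 6 have an adjusted p under 0.05 in the authors' deposited table, where 3.55% of all genes with such a value do. That table marks 4 members lower (Sema5a, Sema6a, Plxnd1 and Nrp1), against 2.17% of all its genes, and 2 higher (Sema4g and Plxna4), against 1.38%. The groups did not overlap for 7 of the 30 tested members, which are those 6 and Plxnc1, against 16.6% of all tested genes: 4 members were lower in all knockouts (8.49% of all genes) and 3 higher (8.14%).

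The depth behind these values was 27930310 to 32401829 reads per library at the least, recovered from the ratios of the deposited values. The lowest tested member had 90 reads in a library and the highest 15092. The median level over the 6 libraries was 19.5 TPM for the semaphorins and 30.0 TPM for the receptors. TPM are corrected for gene length, so these levels can be set side by side. Plxnb2, a receptor of class 4 semaphorins, took 36.6% of the summed TPM of the 11 receptors, while Sema3c, the most abundant ligand, took 15.9% of that of the 20 semaphorins.

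**Figure D1:**
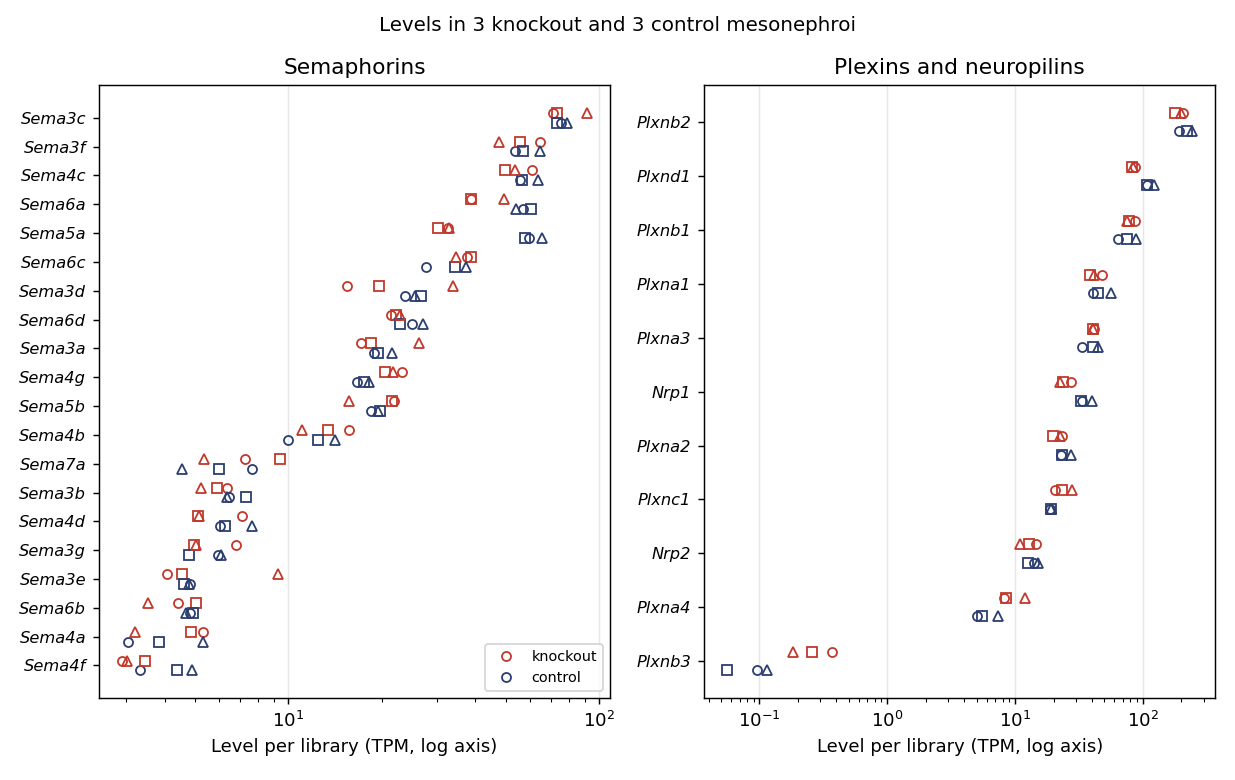
Level of each member in TPM on a log axis, with semaphorins in the left panel and plexins and neuropilins in the right one, ordered by mean level. Each symbol is 1 library (circle, square and triangle for mouse 1, 2 and 3 of its group), with 3 knockouts in red above 3 controls in blue. Plxnb2 is highest at 180 to 244 TPM, and Plxnb3 is lowest at 0.0559 to 0.368 TPM.

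The ligands and the receptors were set against each other by their summed levels. The 20 semaphorins together had 464, 445 and 481 TPM in the knockouts, against 483, 499.5 and 533 TPM in the controls. The 11 receptors together had 562, 507 and 535 TPM in the knockouts, against 532, 584 and 665 TPM in the controls. The knockout sums of the ligands lay below each control sum, at the closest by 481 against 483 TPM, while those of the receptors overlapped. The mean sums differed by -8.3% for the ligands and -9.9% for the receptors. The ratio of receptors to ligands averaged 1.15 ± 0.0510 in knockouts and 1.17 ± 0.0733 in controls (SD, n = 3 each), so it differed by less than the spread between embryos. Without Sema5a and Sema6a, the remaining 18 semaphorins summed to 389 ± 11.7 TPM in knockouts and 388 ± 24.1 TPM in controls (SD, n = 3 each). Without Plxnd1 and Nrp1, the remaining 9 receptors summed to 426 ± 23.8 TPM in knockouts and 445 ± 56.4 TPM in controls (SD, n = 3 each). The genes left out were picked as lower in these same data, so each remainder moves towards the knockouts by construction and adds no support. The median log2 difference was -0.033 for the 20 semaphorins and -0.13 for the 10 tested receptors, beside -0.0075 over all tested genes. Without control 3, the highest library for 14 of the 30 members and for 22.0% of all tested genes, the semaphorin median was 0.023 and the receptor median -0.040. Of the semaphorins 9 had a log2 difference above 0 and 11 below it, and of the receptors 4 and 6.

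**Figure D2:**
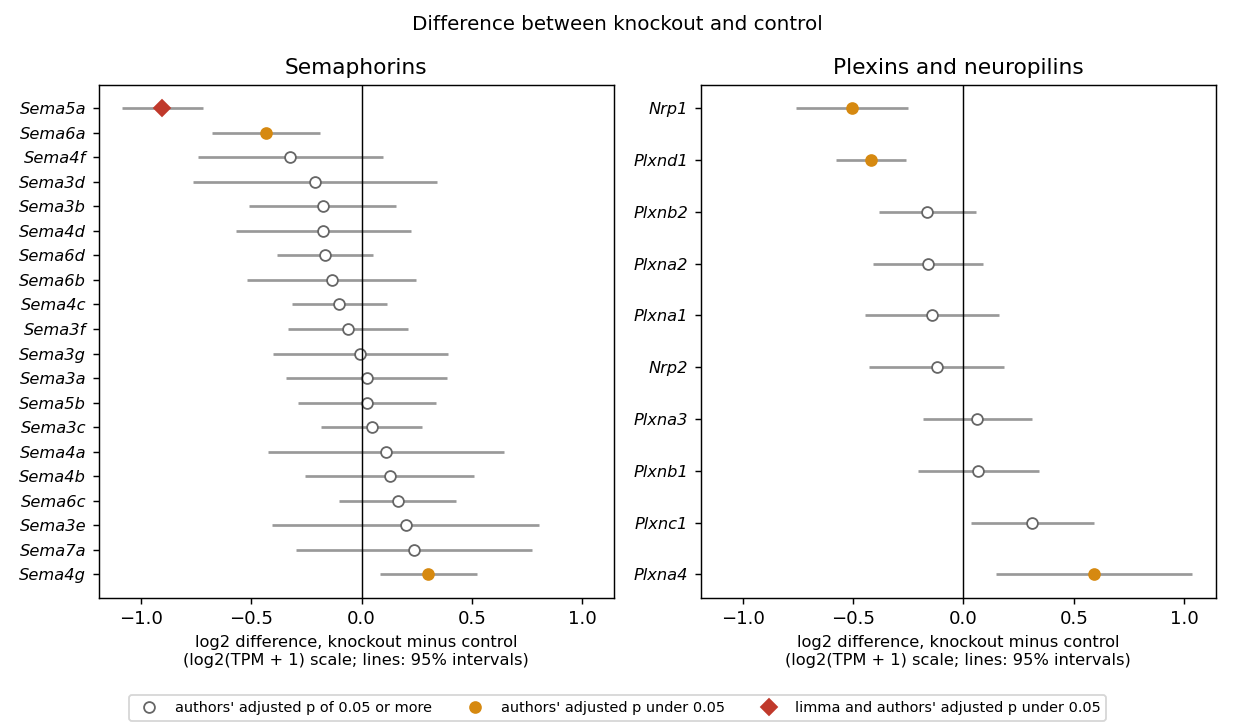
Log2 difference of knockout minus control for the 30 tested members on the log2(TPM + 1) scale, with limma's 95% intervals as lines. The red diamond (Sema5a) passed limma and the authors' test, filled orange points passed only the authors' test, and open points passed neither. Most intervals include 0, and Sema5a lies furthest out at -0.90.

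Sema5a (ENSMUSG00000022231) acts in axon guidance and in vessel growth, and its protein crosses the membrane. It was at 32.7, 30.4 and 33.0 TPM in the knockouts, against 59.3, 57.7 and 65.3 TPM in the controls. The groups were far apart, and each was tight. Its log2 difference was -0.90 (SE 0.079, 95% interval -1.08 to -0.72; limma adjusted p = 0.00519). In the authors' deposited table Sema5a stands at -0.92 (adjusted p 5.17e-31). It rested on 4765 to 5622 recovered reads per knockout library and 8910 to 10783 per control library. In a bulk tissue, fewer cells that express a gene and less of its RNA in each cell cannot be told apart.

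The stretches just before the annotated starts of the members marked lower are shown because these genes were lower in the same 3 embryos; that of Sema6a is not shown. They are the 250 bases upstream of the start, from RefSeq on GRCm38.p6, an earlier build than the GRCm39 named for the reads. Capitals mark GGGCGG (the GC box), CTTTGA (the core of sites of the Wnt effectors TCF and LEF) and AGAACA (a half-site of the androgen receptor), each on either strand. Overlapping matches were counted separately.
Sema5a, chr15:32244563-32244812, plus strand: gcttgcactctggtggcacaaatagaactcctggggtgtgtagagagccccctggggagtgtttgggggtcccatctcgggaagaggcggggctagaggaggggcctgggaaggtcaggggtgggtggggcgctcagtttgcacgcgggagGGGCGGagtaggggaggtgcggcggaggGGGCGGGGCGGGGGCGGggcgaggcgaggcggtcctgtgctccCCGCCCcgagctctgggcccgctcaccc
Plxnd1, chr6:115995006-115995255, minus strand: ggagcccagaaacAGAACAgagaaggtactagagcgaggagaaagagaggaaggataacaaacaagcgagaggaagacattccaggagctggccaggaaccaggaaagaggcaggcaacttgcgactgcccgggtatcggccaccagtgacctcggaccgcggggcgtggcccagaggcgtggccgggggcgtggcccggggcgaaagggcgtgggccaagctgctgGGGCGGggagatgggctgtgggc
Nrp1, chr8:128358823-128359072, plus strand: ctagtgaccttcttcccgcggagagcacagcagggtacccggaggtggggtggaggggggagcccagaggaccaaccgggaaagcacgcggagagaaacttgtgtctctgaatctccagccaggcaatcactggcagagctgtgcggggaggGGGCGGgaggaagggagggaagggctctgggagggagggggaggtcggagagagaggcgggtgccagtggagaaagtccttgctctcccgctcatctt

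The Sema5a window held 5 GC boxes, and those of Plxnd1 and Nrp1 held 1 each. None of these 3 windows held CTTTGA, which is in 13.8% of the 32851 windows of this length in the table. Plxnd1 held 1 AGAACA, which is in 16.1% of all windows. Windows of 26 of the 31 members were read, 37 windows in all, and Sema6a is not among these members. Of the 37 windows, 27 held a GC box (73.0%, against 32.7% of all windows), 2 held CTTTGA and 7 held AGAACA. The windows with CTTTGA belong to Nrp2 and Sema3e. The median content of G and C was 64.0% in the members' windows and 52.4% in all windows. These are letter matches in a short window and say nothing of binding.

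The summed levels of mesonephric tubule markers and of duct markers were lower in the same embryos. The part of these markers in the result for Sema5a was not tested. A list of 7 mesonephric tubule genes summed to 69.1 to 74.2 TPM in knockouts, against 114 to 120.3 TPM in controls, with 3 of its 6 tested genes past limma, all lower, and none of the 7 at 0. The 8 duct epithelium markers summed to 345 to 407 TPM in knockouts, against 419 to 444 TPM in controls, and none was at 0. Of these 8, 4 were lower in all knockouts and 1 passed limma (Calb1, lower). Their log2 differences were below 0 for 5 and above it for 3 (Cdh1, Gata3 and Ret). Sema5a divided by the tubule sum was 0.441, 0.440 and 0.446 in knockouts, against 0.493, 0.505 and 0.567 in controls. Divided by the sum of 8 mesenchyme genes, which was 2217 to 2382 TPM in knockouts and 2361 to 2637 TPM in controls, it averaged 0.0138 ± 0.000973 in knockouts and 0.0245 ± 0.000855 in controls (SD, n = 3 each). Col1a1 and Col3a1 make up most of that sum. The 8 mesenchyme genes did not move together: 5 had a log2 difference above 0 and 3 below it. Limma called 1 of them higher (Tcf21, log2 difference 0.62, adjusted p = 0.0197) and 1 lower (Pdgfrb). Pdgfrb, a receptor gene of the mesenchyme that fell itself (log2 difference -0.60, limma adjusted p = 0.0137), gave a smaller gap: Sema5a divided by Pdgfrb averaged 0.212 ± 0.0139 in knockouts and 0.266 ± 0.0164 in controls (SD, n = 3 each), a difference of -20.1%, against -43.6% for the mesenchyme sum. Each of these ratios was lower in all 3 knockouts than in any control (exact two-sided permutation p = 0.1 each, the smallest that 3 against 3 allows). Sema5b, the only other class 5 semaphorin, averaged 19.8 ± 3.49 TPM in knockouts and 19.2 ± 0.679 TPM in controls (SD, n = 3 each), and the ratio of Sema5a to Sema5b was 1.49, 1.41 and 2.10 in knockouts, against 3.22, 2.93 and 3.36 in controls.

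Sema6a (ENSMUSG00000019647), a membrane-bound ligand of plexins A2 and A4, was at 38.6, 38.6 and 49.4 TPM in the knockouts, against 56.9, 60.2 and 53.9 TPM in the controls. Knockout 3 lay close to the lowest control. The log2 difference of -0.43 (SE 0.11) did not pass limma over all genes (adjusted p = 0.169), while Sema6a stands at -0.43 in the authors' deposited table (adjusted p 0.00123). Without knockout 3 the log2 difference was -0.55 and passed limma (adjusted p = 0.0264); over the 15 alternatives it passed in 2, with adjusted p of 0.0264 to 0.511. The 7 semaphorins of classes 5 to 7 summed to 165 ± 1.03 TPM in knockouts and 206 ± 6.06 TPM in controls (SD, n = 3 each). Sema5a and Sema6a were then set apart because they were lower in these same data. The 5 others of these classes summed to 90.5 ± 7.61 TPM in knockouts and 88.2 ± 4.64 TPM in controls (SD, n = 3 each). Those others are Sema5b, Sema6b, Sema6c, Sema6d and the lipid-anchored Sema7a. Sema6d, known as a ligand of plexin A1, averaged 22.1 ± 0.753 TPM in knockouts and 25.0 ± 2.14 TPM in controls (SD, n = 3 each). The limma adjusted p of these 5 genes ran from 0.585 to 0.964.

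The class 4 semaphorins are membrane-bound ligands chiefly of B-group plexins and did not pass limma (0 of 6; limma-voom called 0, the authors' deposited table marks 1, and 1 had an unadjusted p under 0.05). Sema4g (ENSMUSG00000025207) was at 23.2, 20.4 and 21.7 TPM in the knockouts, against 16.7, 17.6 and 18.1 TPM in the controls. The knockout values were all above the control values, by 24.8% on average. Its log2 difference of 0.30 (SE 0.096; limma adjusted p = 0.272) stands beside 0.33 in the authors' deposited table (adjusted p 0.0202). Markers of the gonadal soma moved the same way: 7 of 8 had a higher mean in knockouts, and none was at 0. Their summed level was 97.4 to 185 TPM in knockouts, against 55.8 to 76.8 TPM in controls. Sema4g divided by that sum was 0.126, 0.136 and 0.223 in knockouts, against 0.217, 0.290 and 0.324 in controls, so the ratios overlapped (exact two-sided permutation p = 0.2). The part of these markers in the value of Sema4g was not tested. Sema4c, a ligand of plexin B2 and the most abundant of the class, had 60.7, 49.6 and 53.7 TPM in knockouts, against 55.8, 56.6 and 63.5 TPM in controls, so the groups overlapped. Sema4d, the ligand of plexin B1, averaged 5.79 ± 1.12 TPM in knockouts and 6.63 ± 0.875 TPM in controls, and Sema4b 13.4 ± 2.32 TPM in knockouts and 12.2 ± 2.05 TPM in controls (SD, n = 3 each). Sema4a and Sema4f, the lowest of the ligands, were at 3.14 ± 0.292 TPM (Sema4f) and 4.46 ± 1.10 TPM (Sema4a) in knockouts, against 4.20 ± 0.792 TPM (Sema4f) and 4.07 ± 1.16 TPM (Sema4a) in controls (SD, n = 3 each).

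**Figure D3:**
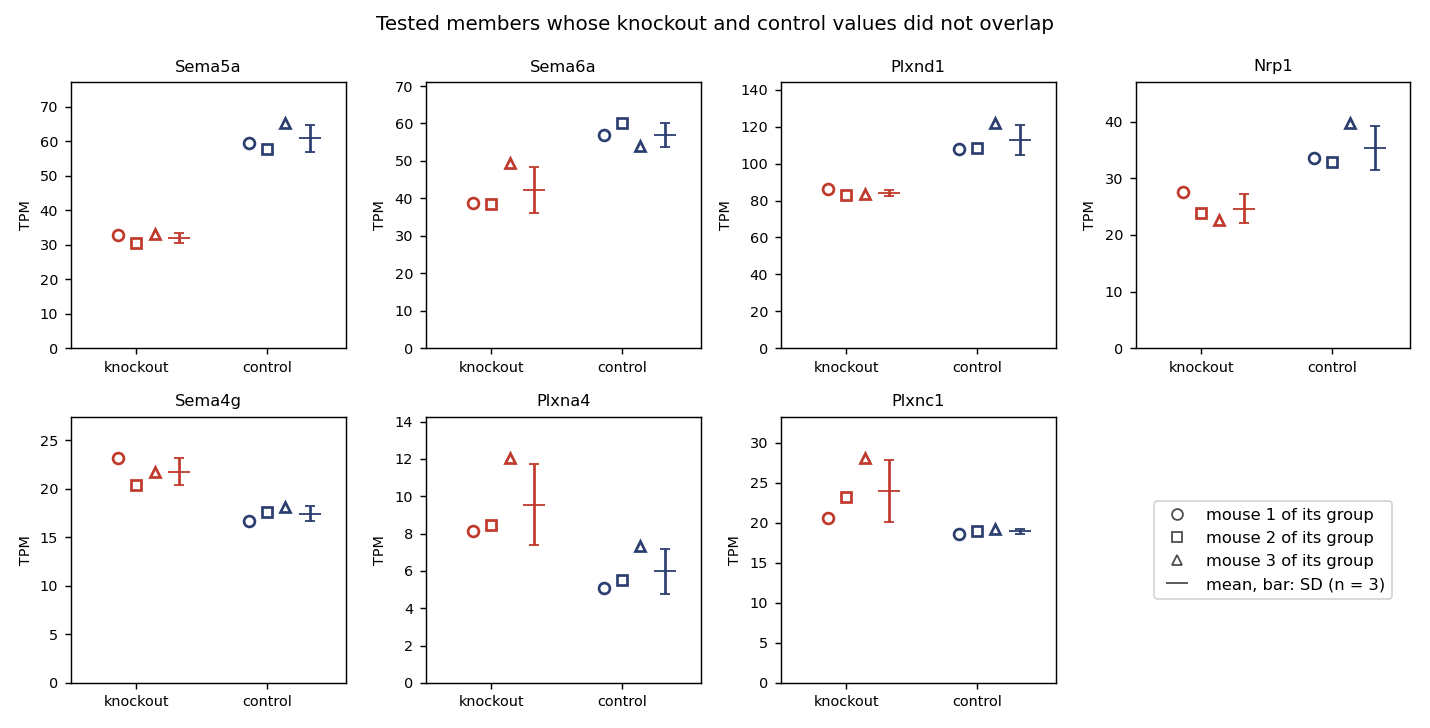
TPM of the 7 tested members whose 3 knockout values (red, left) and 3 control values (blue, right) did not overlap, with axes that start at 0. Symbols are single mice, and the bars give the mean and SD (n = 3). Sema5a shows the widest gap, at 30.4 to 33.0 TPM in knockouts against 57.7 to 65.3 TPM in controls. Sema6a, Sema4g, Plxnc1 and Plxna4 have a larger SD in knockouts than in controls, and Sema5a, Plxnd1 and Nrp1 a smaller one.

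None of the 7 secreted class 3 semaphorins passed limma (limma-voom called 0, the authors' deposited table marks 0, and 0 had an unadjusted p under 0.05), and their sum was 196 ± 20.2 TPM in knockouts and 196 ± 10.1 TPM in controls (SD, n = 3 each). Sema3c, a ligand of both neuropilins, was at 71.1, 73.4 and 91.4 TPM in knockouts, against 75.2, 73.0 and 78.8 TPM in controls. Sema3f, which binds neuropilin 2, was at 64.4, 55.8 and 47.7 TPM in knockouts, against 53.5, 56.7 and 64.4 TPM in controls. In both, the knockout values spanned the control values.

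The knockout embryos differed more among themselves in this class than the controls did. The coefficient of variation was larger in knockouts for 7 of the 7 genes, and the share of all tested genes with this was not counted. Among the other semaphorins it was also larger in knockouts for Sema4b, Sema4c, Sema4d, Sema4g, Sema5b, Sema6a, Sema6b and Sema7a. It was smaller for Sema4a, Sema4f, Sema5a, Sema6c and Sema6d. Among plexins it was smaller in knockouts for Plxna1, Plxna2, Plxna3, Plxnb1, Plxnb2 and Plxnd1, and larger for Plxna4, Plxnb3 and Plxnc1. Its median over all tested members was 14.1% in knockouts and 9.08% in controls. Over all tested genes it was 11.9% in knockouts and 9.64% in controls. Sema3e, the ligand of plexin D1, was at 4.06, 4.54 and 9.26 TPM in knockouts, against 4.84, 4.60 and 4.81 TPM in controls. Sema3d was at 15.4, 19.6 and 33.9 TPM in knockouts, against 23.8, 26.7 and 25.6 TPM in controls. Sema3a, the axon repellent that acts through neuropilin 1, was at 17.1, 18.4 and 26.3 TPM in knockouts, against 18.8, 19.5 and 21.6 TPM in controls. For Sema3a, Sema3c, Sema3d and Sema3e the third knockout was the highest of all 6 libraries, and the first and second lay near or below the controls. For Sema3b and Sema3f the third knockout was the lowest of the 6. The third knockout was the highest library for 22.7% of all tested genes and for 6 of the 30 tested members. It was the lowest for 15.7% of all tested genes and also for 6 of the 30 members. Since that embryo was the highest for each of Sema3a, Sema3c, Sema3d and Sema3e, it was so for their sum, which adds no support. That sum was 161 TPM there, against 108 and 116 TPM in the other knockouts and 123 to 131 TPM in controls. The 7 class 3 genes summed to 219 TPM there, against 185 and 183 TPM in the other knockouts and 189 to 208 TPM in controls. Without knockout 3 the log2 differences of Sema3a, Sema3c and Sema3e changed sign, to -0.16, -0.066 and -0.12, and none passed limma with or without it. Sema3b averaged 5.83 ± 0.578 TPM in knockouts and 6.72 ± 0.529 TPM in controls, and Sema3g 5.61 ± 1.03 TPM in knockouts and 5.61 ± 0.705 TPM in controls (SD, n = 3 each).

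**Figure D4:**
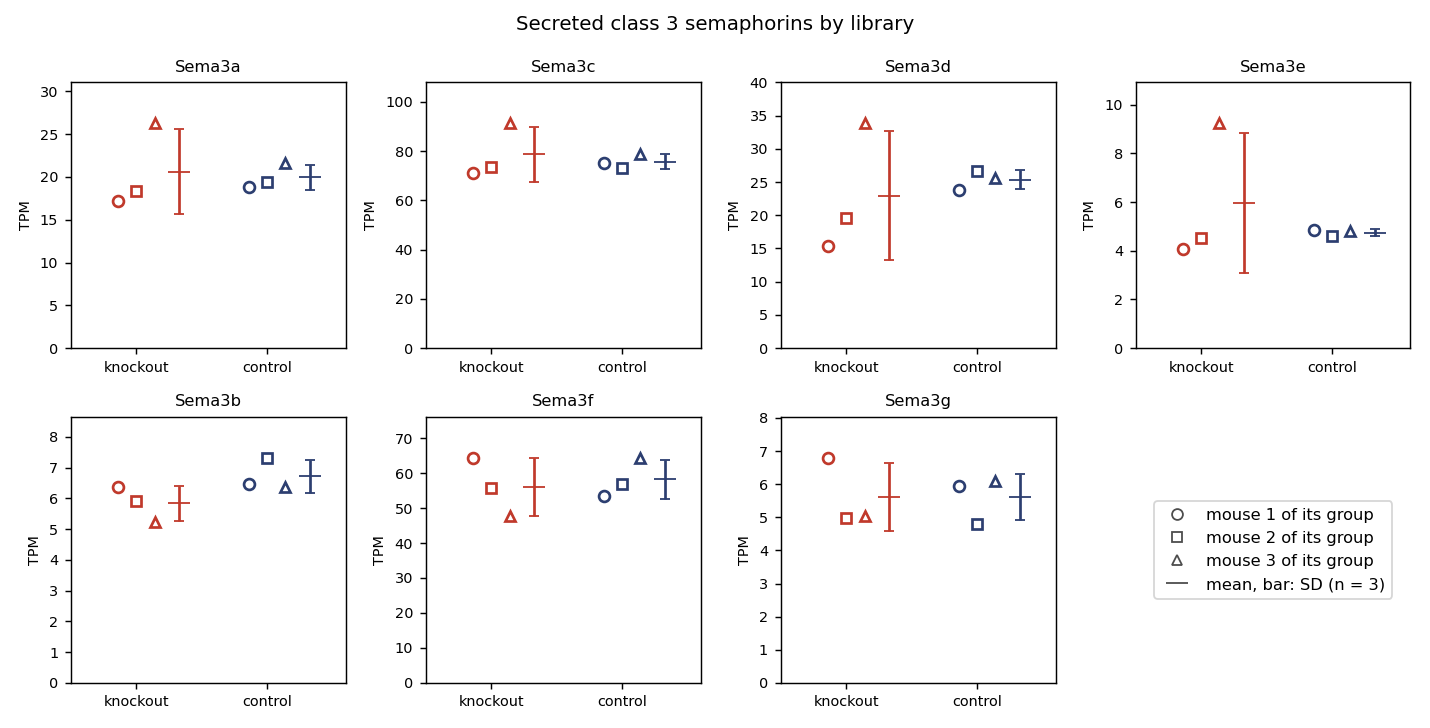
TPM of the 7 secreted class 3 semaphorins in knockouts (red, left) and controls (blue, right), with axes that start at 0. Symbols are single mice and bars the mean and SD (n = 3). The third knockout (triangle) is the highest of 6 libraries for Sema3a, Sema3c, Sema3d and Sema3e, and the lowest for Sema3b and Sema3f. Sema3e is at 9.26 TPM there, against 4.06 to 4.84 TPM in the others.

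Of the 10 receptors tested, limma called 0, with 2 higher and 2 lower at an unadjusted p under 0.05. The authors' deposited table marks 3 of the 10. With limma-voom, run on recovered reads, Plxnd1 and Nrp1 were called lower, where 1.07% of all genes were called lower and 1.59% in either direction. Plxnd1 (ENSMUSG00000030123), the receptor of Sema3E in vessels, was at 86.1, 82.8 and 83.5 TPM in the knockouts, against 108, 109 and 122 TPM in the controls. The 3 knockouts were close together and clearly below the controls. The log2 difference of -0.42 (SE 0.069, 95% interval -0.58 to -0.26) lay just short of the threshold (limma adjusted p = 0.0550). It passed in 2 of 15 alternatives, upper-quartile scaling (adjusted p = 0.0403) and limma-voom (adjusted p = 0.00888), and its adjusted p reached 0.203 in the others. Plxnd1 stands at -0.41 in the authors' deposited table (adjusted p 5.07e-06).

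Nrp1 (ENSMUSG00000025810), a receptor of Sema3A and of vascular endothelial growth factor A, was at 27.5, 23.8 and 22.6 TPM in the knockouts, against 33.5, 32.8 and 39.8 TPM in the controls. All 3 knockouts were lower than each control, with a difference of -30.3% between the means. Its log2 difference was -0.50 (SE 0.11; limma adjusted p = 0.124), it passed in 1 of 15 alternatives (limma-voom; adjusted p of 0.0209 to 0.347 over all 15), and Nrp1 stands at -0.51 in the authors' deposited table (adjusted p 0.000107). Nrp2, which favours Sema3F and Sema3C, was at 14.5, 12.9 and 10.9 TPM in knockouts, against 14.1, 12.7 and 15.0 TPM in controls, with a log2 difference of -0.12 (95% interval -0.43 to 0.19; limma adjusted p = 0.799). The ratio of Nrp1 to Nrp2 was 1.89, 1.85 and 2.06 in knockouts, against 2.37, 2.59 and 2.65 in controls, so the ratios did not overlap (exact two-sided permutation p = 0.1, the smallest that 3 against 3 allows).

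Plxnd1 and Nrp1 are both abundant in endothelial cells, so endothelial markers are given beside them. All 8 markers had a lower mean in knockouts, with a median log2 difference of -0.25, none at 0, and 2 of the 8 marked lower in the authors' deposited table. Their sum was 387 to 421 TPM in knockouts, against 454 to 486 TPM in controls. Relative to that sum, Plxnd1 was 0.223, 0.204 and 0.199 in knockouts, against 0.222, 0.239 and 0.258 in controls, and Nrp1 was 0.0711, 0.0588 and 0.0537 in knockouts, against 0.0689, 0.0723 and 0.0842 in controls. Both ratios overlapped between the groups (exact two-sided permutation p = 0.2 each), with differences between the means of -13.1% for Plxnd1 and -18.5% for Nrp1. The vascular receptor genes Kdr (which is also 1 of the 8 markers) and Flt4 are marked lower in the authors' deposited table (adjusted p 0.00199 and 0.0146). Kdr, the main receptor of vascular endothelial growth factor A, averaged 54.6 ± 7.96 TPM in knockouts and 72.0 ± 4.26 TPM in controls, while Vegfa averaged 180.2 ± 4.07 TPM in knockouts and 178 ± 8.97 TPM in controls (SD, n = 3 each). None of 8 genes of that list passed limma (limma-voom called 1, the authors' deposited table marks 2, and 2 had an unadjusted p under 0.05).

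**Figure D5:**
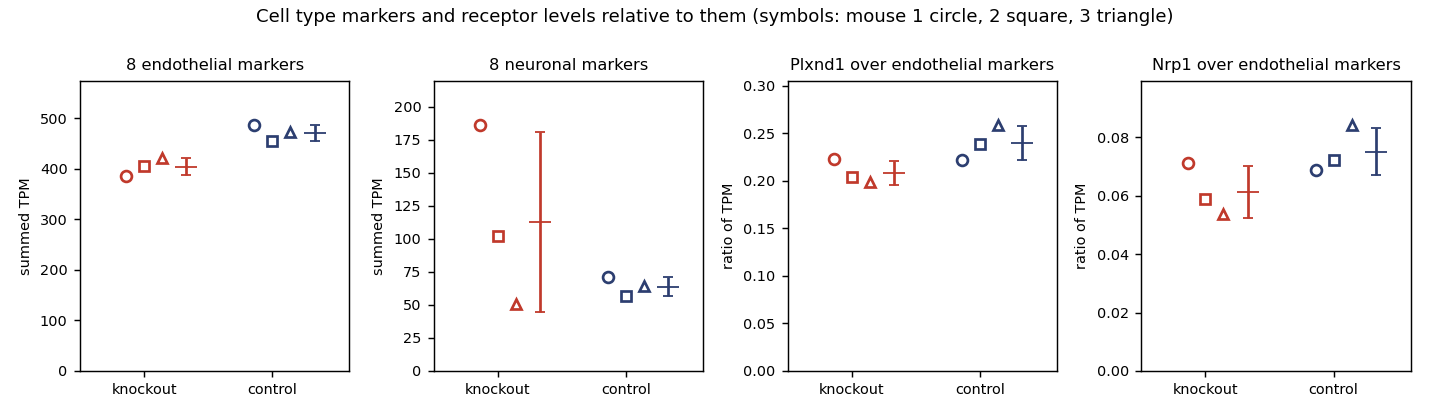
Summed TPM of 8 endothelial and of 8 neuronal markers, and the ratio of Plxnd1 and of Nrp1 to the endothelial sum, in knockouts (red, left) and controls (blue, right). Circle, square and triangle are mouse 1, 2 and 3 of each group, and bars give the mean and SD (n = 3). The endothelial sum is lower in all 3 knockouts, the neuronal sum runs from 50.4 to 186 TPM among knockouts, and both ratios overlap between the groups.

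Of the A-group plexins, which pair with neuropilins for class 3 ligands and bind class 6 ligands directly, Plxna4 was the one whose groups did not overlap. Plxna4 (ENSMUSG00000029765) was at 8.14, 8.46 and 12.1 TPM in the knockouts, against 5.08, 5.52 and 7.32 TPM in the controls. The gap between the lowest knockout and the highest control was small beside the spread within each group. The log2 difference of 0.59 (SE 0.19, 95% interval 0.15 to 1.04) did not pass limma (adjusted p = 0.286), while Plxna4 stands at 0.69 in the authors' deposited table (adjusted p 0.000809). Plxna4 is known from sympathetic and sensory neurons. All 8 neuronal markers had a higher mean in knockouts, and their sum was 186, 102 and 50.4 TPM in knockouts 1 to 3, against 70.7, 56.5 and 64.4 TPM in controls, and none was at 0. Plxna4 divided by that sum was 0.0437, 0.0829 and 0.239 in knockouts, against 0.0718, 0.0978 and 0.114 in controls, so the ratios overlapped. The part of the neuronal markers in the value of Plxna4 was not tested. In the GENCODE annotation, exons of genes on the opposite strand overlap those of Plxna4 (Plxna4os3), Plxna1 (Gm26811), Plxnb1 (Gm7628) and Sema4c (D430040D24Rik), and whether reads were counted by strand is not given in the sources used here.

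Plxna1, Plxna2 and Plxna3 overlapped between the groups. Plxna1 averaged 42.7 ± 5.07 TPM in knockouts and 47.4 ± 8.09 TPM in controls, Plxna2 21.9 ± 1.75 TPM in knockouts and 24.6 ± 2.58 TPM in controls, and Plxna3 41.0 ± 0.374 TPM in knockouts and 39.5 ± 5.66 TPM in controls (SD, n = 3 each). Plxnc1 (ENSMUSG00000074785), the plexin that binds Sema7A, was at 20.6, 23.2 and 28.2 TPM in the knockouts, against 18.6, 19.0 and 19.2 TPM in the controls. The controls were tightly grouped below all 3 knockouts. Its log2 difference was 0.31 (SE 0.12; limma adjusted p = 0.385), and Plxnc1 stands at 0.35 in the authors' deposited table (adjusted p 0.0557). Its ligand gene Sema7a was at 7.25, 9.43 and 5.36 TPM in knockouts, against 7.64, 5.98 and 4.53 TPM in controls.

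The B-group plexins, receptors of class 4 semaphorins in kidney and nerve, held both the most and the least abundant member of the family. Plxnb2 was at 205, 180 and 198 TPM in knockouts, against 191, 221 and 244 TPM in controls, with a log2 difference of -0.16 (95% interval -0.38 to 0.058; limma adjusted p = 0.595). Plxnb1 was at 86.4, 77.3 and 74.5 TPM in knockouts, against 64.1, 75.6 and 89.0 TPM in controls, and its log2 difference of 0.068 had an interval of -0.20 to 0.34. Knockout and control values overlapped in both genes. Plxnb3 was under the filter, at 0.368, 0.257 and 0.184 TPM in knockouts, against 0.0950, 0.0559 and 0.115 TPM in controls. These values rest on 22, 14 and 10 recovered reads in knockouts and on 6, 3 and 6 in controls. The authors' deposited table gives Plxnb3 a log2 fold change of 1.62 with a p of 0.0598 and no adjusted p.

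Further genes of the pathway were read from lists chosen by role. Of 32 effectors downstream of plexins, none passed limma (limma-voom called 1, the authors' deposited table marks 2, and 4 had an unadjusted p under 0.05, all of these higher). Their median log2 difference was 0.094, and for 8 of the 32 all knockouts were above all controls, where this held for 8.14% of all tested genes. The MICAL proteins are oxidases that take actin filaments apart when semaphorins bind plexin A. Mical2 had 12.7, 13.4 and 16.9 TPM in knockouts, against 9.25, 9.07 and 11.5 TPM in controls. Mical1 had 23.6, 19.8 and 23.2 TPM in knockouts, against 16.2, 18.5 and 17.3 TPM in controls. All knockout values of both genes lay above the control values, and both are marked higher in the authors' deposited table (adjusted p 0.000898 for Mical2 and 0.0306 for Mical1).

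Of 10 co-receptors and other semaphorin receptors in the table, 7 were tested and none passed limma (limma-voom called 1, lower, the authors' deposited table marks 2, and 2 had an unadjusted p under 0.05, both lower). Met, the receptor of hepatocyte growth factor, which can associate with plexin B1, was at 11.4, 8.04 and 12.4 TPM in knockouts, against 16.0, 16.7 and 18.2 TPM in controls. The groups were well apart, the log2 difference was -0.65 (SE 0.16; limma adjusted p = 0.169), and Met is marked lower in the authors' deposited table (adjusted p 0.000206). Chl1, an adhesion molecule that joins neuropilin 1 in the response to Sema3A, was under the filter at 1.03, 0.271 and 0.175 TPM in knockouts, against 0.0502, 0.0788 and 0.0608 TPM in controls. Chl1 is marked higher in the authors' deposited table (adjusted p 0.00136). Of 7 proteases that process semaphorins, none passed limma (limma-voom called 0, the authors' deposited table marks 0, and 1 had an unadjusted p under 0.05, lower).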

How the data were processed

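Libraries were made from poly(A) RNA and read from both ends, per the labels' protocols. GRCm39 and DESeq2 are named in the submitters' processing notes; aligner, counting tool, strand and filters were not stated there. The authors deposited TPM, 1 column per library, per the file headers. Their log2 fold change (knockout over control), p-value and adjusted p-value stand beside it in the deposited table.

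Differences were tested with limma 3.58.1 (R 4.3.3) on log2(TPM + 1). The fit held genotype alone and let the variance follow the mean level. A gene was tested if 3 or more libraries had 1 TPM or more. P-values were adjusted by Benjamini-Hochberg over all 17577 tested genes (threshold 0.05), and this scale understates the change of low genes. Ratios between libraries gave whole reads for 20030 of 20033 genes, within 0.02 reads in each of the 6 libraries. Reads so recovered are lower bounds, since a common divisor cannot be seen, and limma-voom was run on them. The fit was tested on simulated data.

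The members and lists were chosen with earlier results of these data known. Values by library were given for members past either test, for those whose groups did not overlap at a log2 difference of 0.3 or more in size, and for the 3 most abundant ligands and plexins and both neuropilins. From the pathway lists, genes past either test were named. Sema3a, Sema3d, Sema3e, Sema7a, Plxnb3 and Vegfa, the ratios and partial sums, and the promoters were added after values were seen. Timd2, of the co-receptor list, is not analysed here.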

Additional observations from a re-analysis of the deposited data

How the results depend on the processing

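Sema5a kept its direction and passed limma in all 15 alternatives, with log2 differences of -0.94 to -0.83 and adjusted p of 6.03e-05 to 0.0479. The number of genes called over the whole table was 28 without a mean-variance trend and 279 with limma-voom on the recovered reads, and it ran from 13 without control 2 to 243 without knockout 3. Semaphorins called lower were 2 with limma-voom and 1 to 2 when 1 library was left out; the second was Sema6a, with limma-voom and without knockout 3. Plexins and neuropilins called lower were 1 with upper-quartile scaling (Plxnd1) and 2 with limma-voom (Plxnd1 and Nrp1), and 0 members were called higher in each of the 15 alternatives. Of the pathway lists, in which limma called 0 genes, limma-voom called 1 plexin effector, 1 co-receptor and 1 gene of the vascular endothelial growth factor list; that last list ran from 0 to 1 when 1 library was left out (1 without knockout 3). The semaphorin median ran from -0.091 without knockout 1 to 0.023 without control 3, and the receptor median ran from -0.20 to -0.040. Scaling moved the median of all genes by 0.0082 at most. Mouse numbers are shared between the groups, but deviations of same-numbered libraries had correlations of -0.064, 0.050 and -0.051, so they were not treated as pairs; with a replicate block 17 genes were called and Sema5a stayed past the test (adjusted p = 0.0336).

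In at least 1 alternative, 10 of the 30 tested members changed sign. None of these values passed the test, and the cause was not tested. With limma on log2(TPM + 1) over all 6 libraries, Sema3d was at -0.21 and Sema3e at 0.20. The others of these 10 ran from -0.062 to 0.11. Sema3g was at 0.0026 with median-of-ratios scaling and 0.015 with limma-voom. When 1 library was left out, log2 differences ran from -0.053 to 0.15 for Plxna3, -0.049 to 0.19 for Plxnb1, -0.16 to 0.14 for Sema3a, -0.066 to 0.11 for Sema3c, -0.52 to 0.024 for Sema3d, -0.12 to 0.39 for Sema3e, -0.17 to 0.046 for Sema3f, -0.13 to 0.061 for Sema3g, -0.039 to 0.29 for Sema4a and -0.053 to 0.17 for Sema5b.

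With 3 libraries a group and 27930310 to 32401829 reads each at the least, the intervals of single members are wide. That of Sema3e is the widest, at -0.40 to 0.80, and that of Plxnd1 the narrowest, at -0.58 to -0.26.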
